A study of Mus musculus with 12 samples.

Results

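The matrix metalloproteinases (MMPs), the ADAMTS proteases and their tissue inhibitors (TIMPs) were followed in cultured mouse aortic smooth muscle cells with and without a knockout of the nuclear receptor NR4A3. Members were every gene name of the form Mmp, Adamts or Timp followed by its number, with a letter a or b allowed for MMPs, in either count table. That gave 45 of 32532 names, made up of 23 MMPs, 18 ADAMTS and 4 TIMPs, and 42 of them stood in both tables. The 4 groups, each of 3 libraries, were NR4A3 knockout (KO) cells at day 1, wild-type (WT) cells at day 1, KO cells at day 14 and WT cells at day 14. All were primary vascular smooth muscle cells from the mouse aorta, and per the labels' protocols all were grown in medium with serum and 10 mM beta-glycerophosphate (beta-GP), a phosphate donor used to drive mineral deposition. The treatment label reads beta-GP for KO and none for WT, so genotype and whatever that label stands for cannot be told apart. The labels give neither the deleted part of the gene, nor the age or number of the animals, nor whether replicates were separate cultures, and p-values therefore cover the variation among these libraries, which may be technical.

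MMPs and ADAMTS enzymes are zinc proteases that are secreted or held at the cell surface as inactive precursors. Collagenases cut fibrillar collagen, and gelatinases cut denatured and basement membrane collagen. The stromelysins Mmp3 and Mmp10 have wide substrate ranges, and the ADAMTS enzymes cut proteoglycans or trim procollagen. TIMPs bind the active site of MMPs and block it. In the arterial wall these enzymes are known for breakdown of elastic fibres and collagen and for allowing smooth muscle cells to migrate.

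Library totals ranged from 13848199 to 30105118 counts, and the family took from 0.219% to 0.293% of them. Nr4a3 stood at 2.08 ± 0.235 counts per 1000000 (CPM) in KO cells and 4.25 ± 0.385 CPM in WT cells at day 1. The day 14 means were 49.6 ± 13.6 CPM in KO cells and 237.1 ± 19.6 CPM in WT cells (mean ± SD, n = 3 each), lower in KO at both days. Across 15973 genes, the libraries labelled KO at day 1 were closest to those labelled WT at day 14, with a median correlation of log2 CPM of 0.974, against 0.921 to 0.936 for the other pairs of groups. If the genotype names of one table were crossed, every KO effect of that day would turn round. Nr4a3 was lower in the libraries named KO in both tables (log2 fold change -1.02 ± 0.21 SE at day 1 and -2.27 ± 0.19 SE at day 14), but the deleted part is not given, and a crossing was not tested further. WT replicate 1 of day 14 stood apart from its group, with chi-square values per gene of 32.6 and 46.1 against the other replicates, where all other replicate pairs gave 2.78 to 17.8. Of 10 smooth muscle markers, Acta2, Des and Cald1 were plentiful (at least 276 CPM in every group). Group means ran from 52.3 to 126 CPM for Smtn and from 21.5 to 55.7 CPM for Mylk. They ran from 0.628 to 11.3 CPM for Lmod1 and from 0.257 to 1.93 CPM for Cnn1. Tagln, Myh11 and Myocd, markers of contractile smooth muscle, stayed below 0.6 CPM in every group. Each day is a table of its own, so day and table cannot be told apart in any contrast between the days. In bulk RNA, fewer cells making a transcript and less transcript per cell cannot be told apart.

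Most measured members differed between KO and WT at each day, and many did so in opposite directions. Of the 45 members, 29 passed the filter on low counts at day 1 and 27 at day 14, and 16 passed in no comparison. Of the 29 tested at day 1, 11 were higher and 15 lower in KO (edgeR, adjusted p below 0.05). Among all 15368 genes tested at day 1, 60.8% were called, 30.6% higher and 30.2% lower. At day 14, 11 of 27 tested members were higher and 11 lower, where 46.4% of all genes were called, 22.7% higher and 23.7% lower. The median absolute log2 fold change was 0.64 for the members and 0.43 for all genes at day 1, and 1.43 for the members and 0.42 for all genes at day 14. Of the members tested at both days, 7 were lower in KO at day 1 and higher at day 14, 8 were higher and then lower, 3 were lower at both (Mmp2, Mmp11 and Timp3), and Adamts1 was the single member higher at both. Another 5 were lower at day 1 without a call at day 14, and 3 were higher at day 14 without a call at day 1. How many of all genes showed each of these patterns over both days was not counted, so the patterns cannot be called particular to the family. The median log2 fold change was -0.31 for the members and 0.01 for all genes at day 1, and 0.07 for the members and -0.00 for all genes at day 14. The KO effect itself changed between the days for 23 of 29 members, 13 upward and 10 downward, beside 60.1% of all genes. With library size alone as the scaling, the median of all genes moved from 0.01 to 0.14 on the log2 scale at day 1 and 61.7% of the called genes were higher, against 50.4% with the scaling used here, and the members then counted 11 higher and 12 lower. For the change of the KO effect that scaling moved the higher share from 49.2% to 37.9% of the calls, and the members to 12 upward and 11 downward. Without WT replicate 1 of day 14, 24 members were called at day 14 and 24 for the change.

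**Figure D1:**
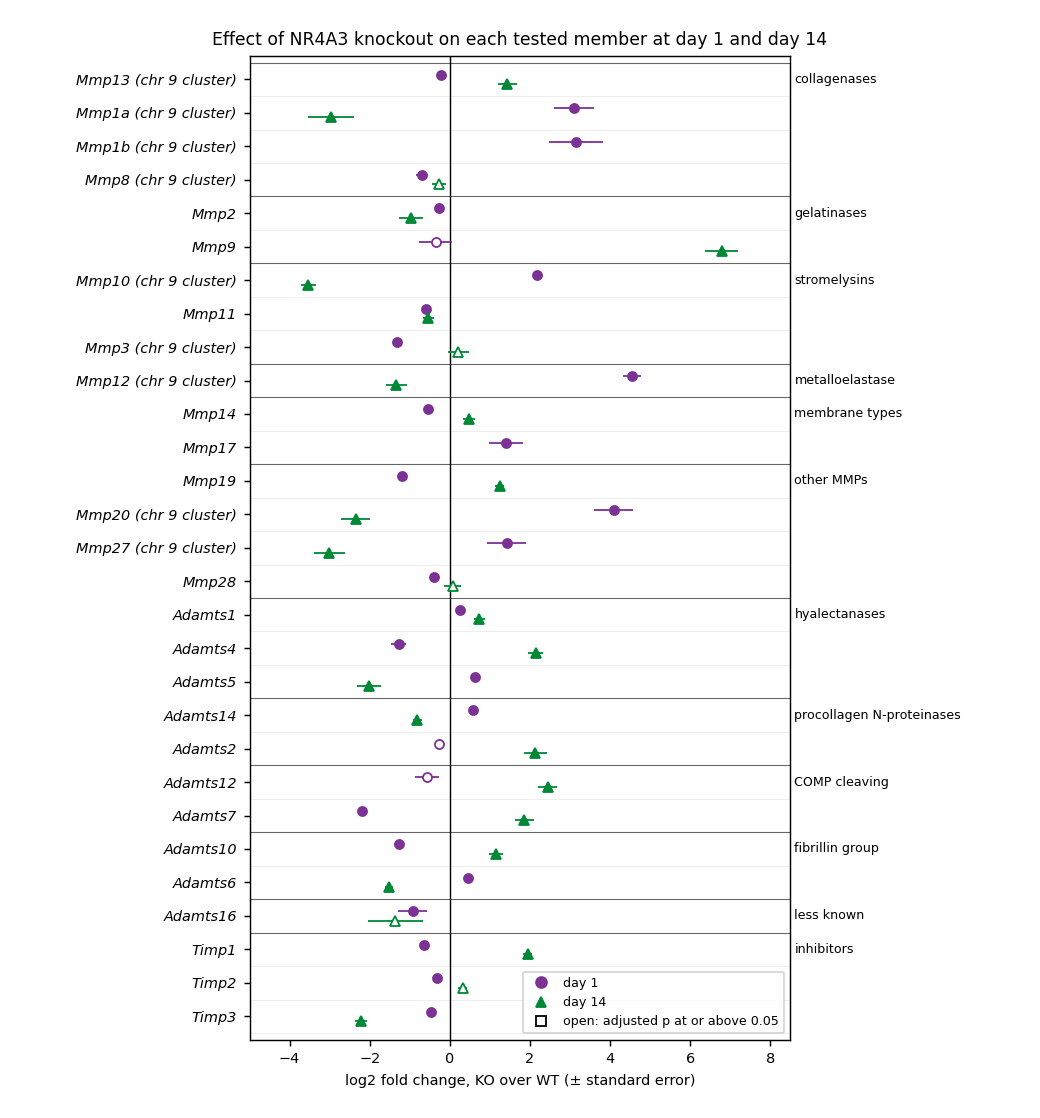
Log2 fold changes of KO over WT (x axis, ± standard error) for each tested member (y axis, grouped by role), with day 1 as purple circles and day 14 as green triangles, and open symbols where the adjusted p was not below 0.05. Mmp9 at day 14 (6.79) and Mmp12 at day 1 (4.54) lie farthest to the right, and Mmp10 at day 14 (-3.53) farthest to the left.

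Per kilobase of exon (lengths from GENCODE M21), which allows levels of different genes to be set side by side, Mmp10 ranked first in KO at day 1 with 291 CPM per kb, and again in WT at day 14 with 271 CPM per kb. The inhibitor Timp1 ranked first in WT at day 1 (229.8 CPM per kb) and in KO at day 14 (809 CPM per kb). Timp2 and Mmp2 were among the 4 highest in every group. Timp2 ranged from 103 CPM per kb (KO, day 1) to 156 (KO, day 14), and Mmp2 from 50.3 CPM per kb (KO, day 14) to 98.0 (WT, day 14). Summed per class, the MMPs gave 475.1 CPM per kb in KO and 318.2 in WT at day 1, and 269.3 in KO and 493.0 in WT at day 14. The TIMPs gave 273.6 CPM per kb in KO and 392.7 in WT at day 1, and 971.4 in KO and 362.6 in WT at day 14. So the summed level of inhibitor transcripts was above that of the MMPs in KO at day 14 and in WT at day 1. It was below that of the MMPs in KO at day 1 and in WT at day 14. These are sums of group means, and their differences were not tested. Each length joins all annotated exons of a gene, which may be longer than the transcript made. Timp1 was the largest term of the TIMP sum in every group, and Mmp10 that of the MMP sum in KO at day 1 and in WT at day 14.

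**Figure D2:**
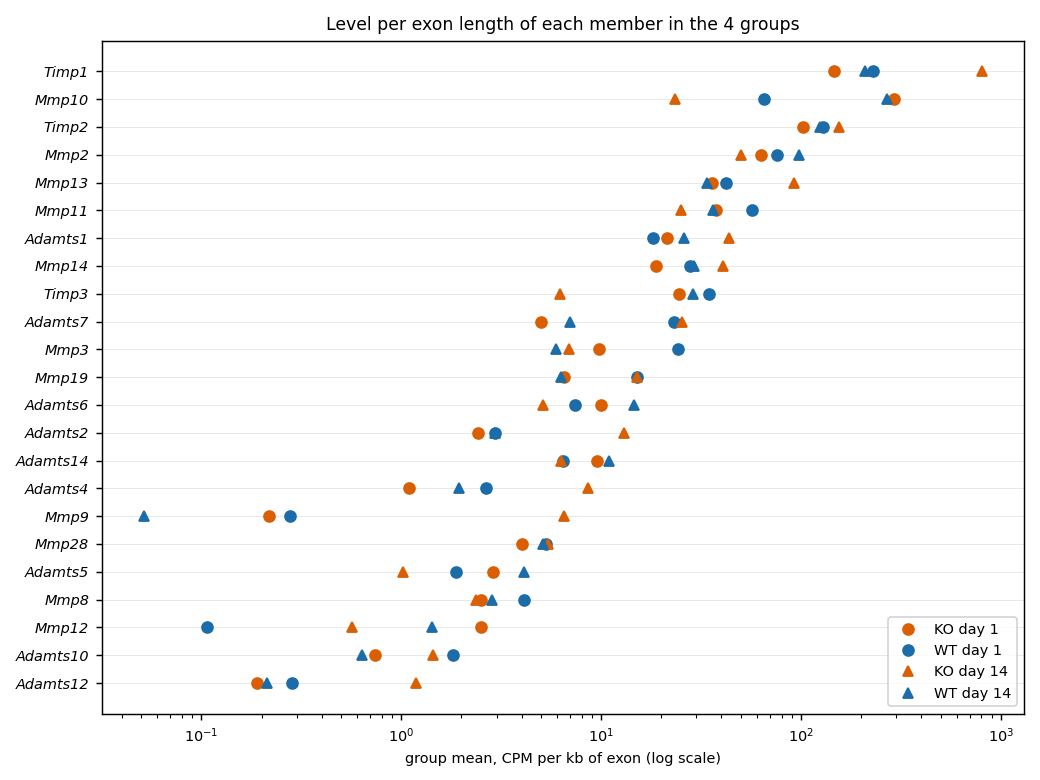
Group mean level of the 23 members with values in every library (y axis) in CPM per kilobase of exon (x axis, log scale), with KO in orange, WT in blue, day 1 as circles and day 14 as triangles. Timp1 in KO at day 14 lies farthest right at 809, and Mmp10 spans from 23.5 to 291 CPM per kb.

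The gelatinases, which cut denatured collagen and basement membrane, moved apart from each other. Mmp9 stood near 1 CPM or below in 3 groups and far higher in KO at day 14. It had 28.1, 19.1 and 22.1 CPM in KO at day 14, against 0.200, 0 and 0.346 CPM in WT at day 14 (log2 fold change 6.79 ± 0.41 SE, adjusted p = 5.12e-06). These WT values rest on 4, 0 and 7 counts, and the groups lay far apart. At day 1 Mmp9 had 1.11, 0.667 and 0.536 CPM in KO and 0.671, 1.20 and 1.07 CPM in WT, overlapping values that did not pass (adjusted p = 0.469). Mmp9 is also a product of neutrophils and macrophages. Of 8 macrophage markers, 7 were in the tables and summed to 50.3 to 54.3 CPM in KO and 64.4 to 95.8 CPM in WT at day 14, and Tyrobp was at 0 in both. Within that sum Csf1r was higher in KO, with 137 counts over the KO libraries and 59 over the WT libraries, while Cd68 averaged 30.7 CPM in KO cells against 57.9 CPM in WT cells. Of 8 neutrophil markers, 4 were in the tables and summed to 1.27 to 2.74 CPM in KO and 4.01 to 4.85 CPM in WT. Within these Camp was higher in KO, with 94 counts over the KO libraries and 7 over the WT libraries, while S100a8 had 13 in KO and 168 in WT. Their part in the Mmp9 result was not tested. Mmp2, the gelatinase made constitutively by mesenchymal cells, had 175, 153 and 181 CPM in KO at day 14 and 159, 421 and 409.8 CPM in WT (log2 fold change -0.97 ± 0.31 SE, adjusted p = 0.0285). WT replicate 1 lay within the KO range and the other 2 far above it. Without it the log2 fold change was -1.32, and without any single one of the other 5 libraries the call was lost (adjusted p from 0.0646 to 0.103), as it was with DESeq2 (0.0515). At day 1 Mmp2 was slightly lower in KO, with 214, 188 and 237 CPM against 253, 267 and 251 CPM in WT (log2 fold change -0.26 ± 0.08 SE, adjusted p = 0.00892), a call lost with library size alone (adjusted p = 0.102) and in the fit of all 12 libraries (0.363). Without KO replicate 2 its log2 fold change was -0.17.

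Among the collagenases, which make the first cut in fibrillar collagen, Mmp13 was the one with high levels. The day 14 values were 311, 188 and 239 CPM in KO and 124, 74.4 and 73.9 CPM in WT, with every KO library above every WT library (log2 fold change 1.43 ± 0.24 SE, adjusted p = 0.00122). At day 1 it had 99.7, 83.0 and 106 CPM in KO and 109, 116 and 113 CPM in WT, all KO libraries lower but by little (log2 fold change -0.22 ± 0.08 SE, adjusted p = 0.0307), and the call was lost without KO replicate 1 or 2 or WT replicate 2 or 3 (adjusted p from 0.0520 to 0.101), with library size alone (0.283) and in the fit of all 12 libraries (0.329). The KO effect on Mmp13 changed between the days by 1.67 ± 0.27 on the log2 scale (adjusted p = 7.64e-05). Mmp8, the neutrophil collagenase, had 7.27, 5.01 and 5.90 CPM in KO and 9.82, 10.3 and 9.76 CPM in WT at day 1, without overlap (log2 fold change -0.71 ± 0.15 SE, adjusted p = 0.00117). At day 14 its values of 6.45, 4.94 and 5.77 CPM in KO and 6.70, 7.40 and 6.58 CPM in WT did not pass (adjusted p = 0.244).

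Of the stromelysins, Mmp3 and Mmp10 are broad proteases that also activate other MMP precursors. Mmp3, stromelysin 1, had 18.7, 17.1 and 16.7 CPM in KO and 44.2, 43.1 and 44.3 CPM in WT at day 1, a gap far wider than the spread within either group (log2 fold change -1.32 ± 0.08 SE, adjusted p = 1.79e-08). At day 14 both genotypes were low and overlapped, with 15.8, 8.82 and 12.8 CPM in KO and 14.01, 9.70 and 8.41 CPM in WT (adjusted p = 0.528). WT cells thus held less Mmp3 at day 14 than at day 1 (log2 fold change -2.03 ± 0.19 SE, adjusted p = 3.97e-07). Mmp11, stromelysin 3, was lower in KO at both days. It had 99.1, 98.8 and 114 CPM in KO and 154, 162 and 158 CPM in WT at day 1 (log2 fold change -0.59 ± 0.07 SE, adjusted p = 4.46e-06). In KO at day 14 Mmp11 had 66.6, 72.1 and 71.2 CPM, against 79.2, 113 and 111 CPM in WT (log2 fold change -0.54 ± 0.14 SE, adjusted p = 0.011), where the call was lost without KO replicate 1 (adjusted p = 0.0544). Its KO effect was about alike at both days, with a difference of 0.08 ± 0.16 (adjusted p = 0.697). Mmp10, or stromelysin 2, is described with its neighbours on chromosome 9.

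Of the membrane-type MMPs, which stay anchored to the cell surface, Mmp14 was the single one to reach 1 CPM in a group mean. Mmp14 activates the Mmp2 precursor. It had 119, 112 and 107 CPM in KO and 159, 173 and 164 CPM in WT at day 1, all KO libraries lower (log2 fold change -0.55 ± 0.06 SE, adjusted p = 4.77e-06). Mmp14 at day 14 had 225, 250.04 and 253 CPM in KO and 132, 199 and 189 CPM in WT, all KO libraries higher (log2 fold change 0.47 ± 0.15 SE, adjusted p = 0.0271), and the call was lost without KO replicate 2 or 3 (adjusted p = 0.0905 and 0.0962). Without WT replicate 1 its log2 fold change was 0.29. Mmp17, another membrane type, was low throughout and higher in KO at day 1 (20, 15 and 19 counts in KO and 6, 9 and 13 counts in WT, log2 fold change 1.40 ± 0.42 SE, adjusted p = 0.0117), a call lost without WT replicate 1 or 2 (adjusted p = 0.0645 and 0.0600).

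Mmp19, a protease of basement membrane proteins, was lower in KO at day 1 and higher at day 14 by about the same size. It had 23.2, 24.1 and 21.6 CPM in KO and 51.7, 54.2 and 54.0 CPM in WT at day 1 (log2 fold change -1.21 ± 0.08 SE, adjusted p = 2.11e-08). At day 14 it had 55.8, 50.3 and 53.3 CPM in KO and 19.9, 22.2 and 24.5 CPM in WT (log2 fold change 1.25 ± 0.11 SE, adjusted p = 4.12e-05). Its groups did not overlap at either day. Part of its exons (789 bases) are shared on the opposite strand with Tmem198b, which had means of 12.1 CPM in KO and 29.4 in WT at day 1, and 20.1 in KO and 12.8 in WT at day 14. Whether counting used strand is not given in the sources used here. Reads of this shared stretch may therefore belong to either gene. Mmp28, or epilysin, an enzyme known from skin, had 13.9, 16.9 and 15.99 CPM in KO and 19.7, 21.4 and 20.7 CPM in WT at day 1 (log2 fold change -0.39 ± 0.10 SE, adjusted p = 0.00451), and overlapping values of 18.9, 22.6 and 21.6 CPM in KO and 13.3, 21.6 and 24.8 CPM in WT at day 14 (adjusted p = 0.826).

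**Figure D3:**
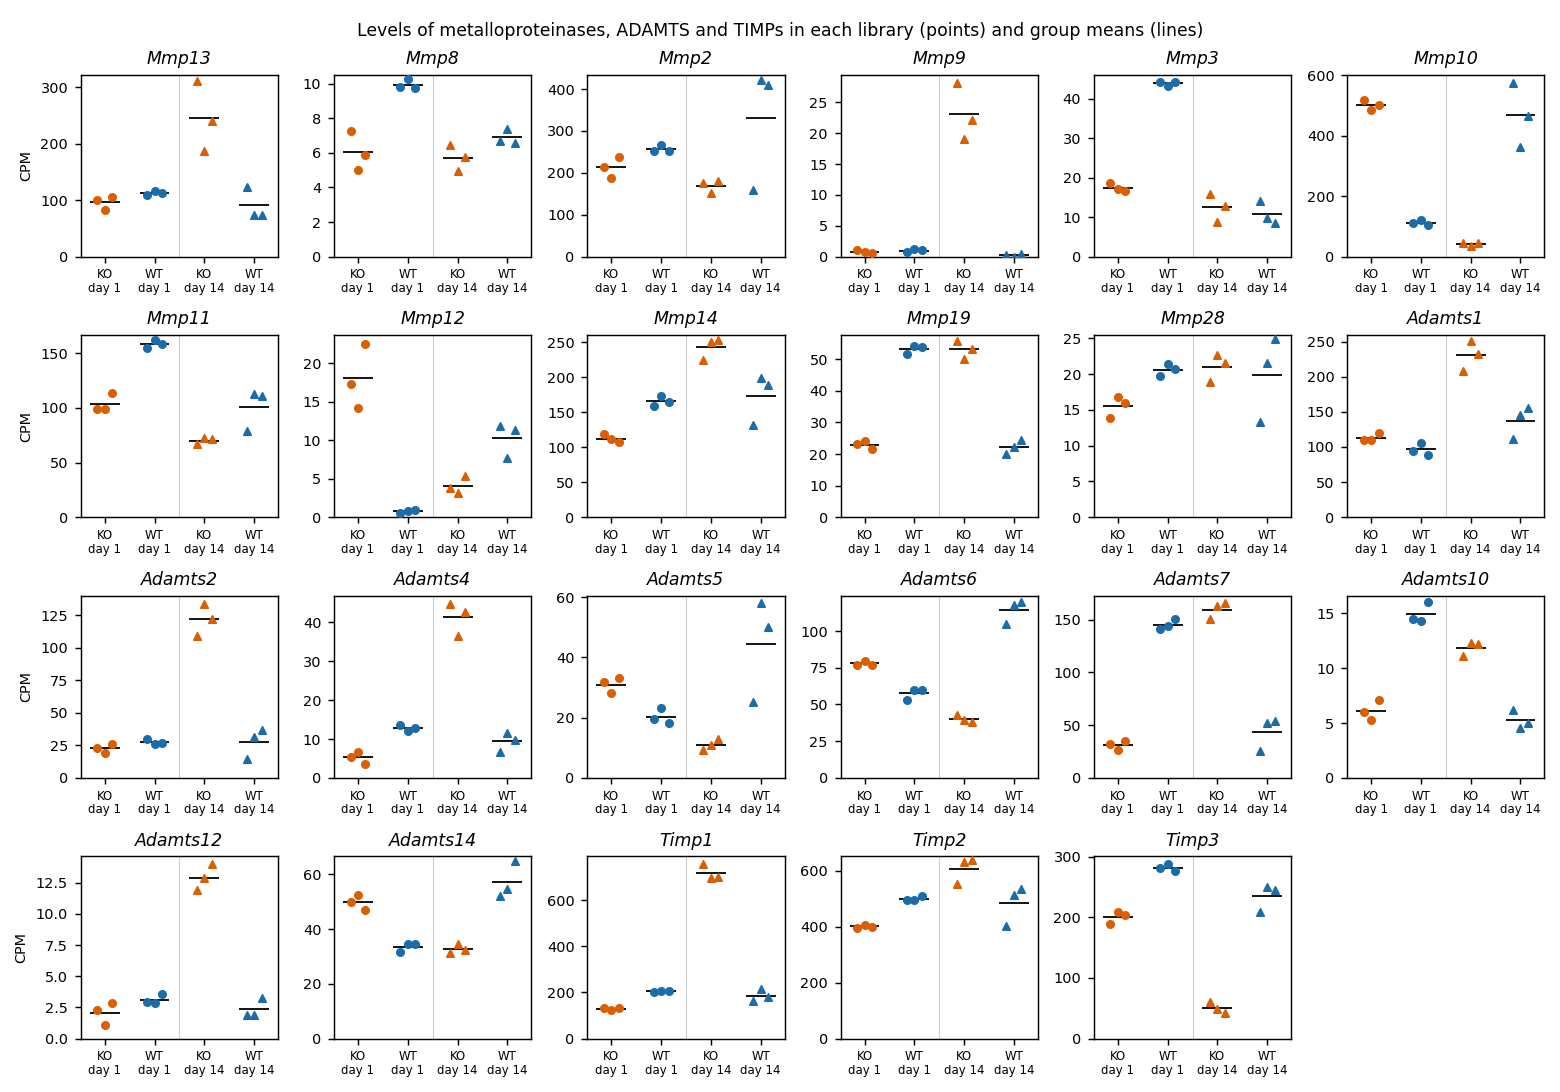
Level in CPM (y axes, linear from 0) of the 23 members with values in every library, for KO (orange) and WT (blue) at day 1 (circles) and day 14 (triangles), with 1 point for each library and a line at the group mean. Mmp9, Adamts2, Adamts4, Adamts12 and Timp1 stand highest in KO at day 14, while Mmp10 is high in KO cells of day 1 and WT cells of day 14, and low in the other 2 groups.

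A group of 10 members lies side by side on mouse chromosome 9: Mmp13, Mmp12, Mmp1b, Mmp3, Mmp1a, Mmp10, Mmp8, Mmp27, Mmp20 and Mmp7, in the order of RefSeq. Of the 9 tested at day 1, 6 were higher and 3 lower in KO, and of the 8 tested at day 14, 1 was higher and 5 were lower. Over all genes, 30.6% were higher and 30.2% lower at day 1, and 22.7% higher and 23.7% lower at day 14. The 35 members elsewhere counted 5 higher and 12 lower of 20 tested at day 1, and 10 higher and 6 lower of 19 tested at day 14, beside the same shares of all genes. Whether the cluster and the rest differ was not tested.

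Mmp10 was the most abundant member of the cluster in KO at day 1 and in WT at day 14, also per kilobase. It had 518, 485 and 502 CPM in KO and 111, 121 and 105 CPM in WT at day 1 (log2 fold change 2.16 ± 0.06 SE, adjusted p = 2.55e-11). The day 14 values were 43.4, 34.3 and 43.9 CPM in KO and 575, 362 and 463 CPM in WT (log2 fold change -3.53 ± 0.18 SE, adjusted p = 2.17e-06). All KO libraries were above all WT libraries at day 1 and below them at day 14, and the KO effect changed by -5.68 ± 0.20 on the log2 scale (adjusted p = 6.81e-12).

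Mmp12, the macrophage elastase, had 17.4, 14.2 and 22.6 CPM in KO and 0.545, 0.849 and 0.912 CPM in WT at day 1 (log2 fold change 4.54 ± 0.23 SE, adjusted p = 3.09e-09). In KO at day 14 Mmp12 had 3.83, 3.11 and 5.34 CPM, against 11.8, 7.68 and 11.3 CPM in WT (log2 fold change -1.33 ± 0.25 SE, adjusted p = 0.00252). Its 4 groups did not overlap each other at any step of the order KO day 1, WT day 14, KO day 14, WT day 1. The macrophage markers summed to 60.8 to 73.0 CPM in KO and 60.2 to 65.7 CPM in WT at day 1, with Adgre1 and Ptprc below 0.5 CPM in the KO mean. Within that sum Cd68 ran as Mmp12 did, with a day 1 mean of 48.6 CPM in KO cells against 21.9 CPM in WT cells, and a day 14 mean of 30.7 CPM in KO cells against 57.9 CPM in WT cells. Lyz2 had 59 counts over the KO libraries and 27 over the WT libraries at day 1, and 28 in KO and 60 in WT at day 14. Ptprc had 26 counts in KO and 0 in WT at day 1, and Cd14 averaged 16.6 CPM in KO cells against 41.0 CPM in WT cells. Their part in the Mmp12 result was not tested. Mmp12 shares 157 exon bases with Mmp1b on the opposite strand.

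Among the low members of the cluster, Mmp1a, Mmp20 and Mmp27 were also higher in KO at day 1 and lower at day 14. Mmp1a, one of the rodent counterparts of human collagenase 1, had 17, 19 and 35 counts in KO and 3, 6 and 2 in WT at day 1 (log2 fold change 3.09 ± 0.50 SE, adjusted p = 0.000148). Mmp1a at day 14 had 3, 1 and 4 counts in KO and 14, 23 and 33 in WT (log2 fold change -2.97 ± 0.57 SE, adjusted p = 0.00257). Mmp1b is a near copy of it, so reads of the pair may have been split or shared, and it had 35 counts in KO and 5 in WT over the group at day 1 (adjusted p = 0.00128). Mmp20, the enamel protease enamelysin, had 22, 31 and 39 counts in KO and 2, 2 and 3 in WT at day 1 (log2 fold change 4.09 ± 0.48 SE, adjusted p = 8.68e-06). At day 14 it had 10, 5 and 6 counts in KO and 43, 30 and 47 in WT (log2 fold change -2.35 ± 0.36 SE, adjusted p = 0.000796). Every KO library of Mmp1a and Mmp20 lay above every WT library at day 1 and below every WT library at day 14. Mmp27 had 13, 40 and 47 counts in KO and 25, 11 and 14 in WT at day 1, which overlapped (log2 fold change 1.42 ± 0.48 SE, adjusted p = 0.0214, lost without KO replicate 3 or WT replicate 2 or 3). The day 14 values were 3, 3 and 5 counts in KO and 30, 30 and 39 in WT (log2 fold change -3.01 ± 0.39 SE, adjusted p = 0.000338). Mmp7, or matrilysin, did not pass the filter on low counts, with 10 counts in KO and 2 in WT at day 1 and 2 in KO and 12 in WT at day 14.

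The genes on both sides of the cluster, which are not metalloproteinases, moved with it. Between Pdgfd and Jrkl, 13 other genes were tested at both days, and 12 of them, all but Jrkl, were called higher in KO cells at day 1 and lower in KO cells at day 14. Beside them stand the 30.6% of all genes called higher at day 1 and the 23.7% called lower at day 14. Their median log2 fold change was 1.96 at day 1 and -3.14 at day 14. Yap1, a transcription coactivator of the Hippo pathway, averaged 3798 CPM in KO libraries and 967 CPM in WT libraries at day 1. Its day 14 means were 622 CPM in KO libraries and 4498 CPM in WT libraries. Birc2, which inhibits apoptosis, averaged 1643 CPM in KO libraries against 396 CPM in WT libraries at day 1. Its day 14 means were 185 CPM in KO libraries and 1556 CPM in WT libraries. The 12 genes together gave 14220 to 15050 CPM in KO and 4624 to 4723 CPM in WT at day 1, and 2141 to 2252 CPM in KO and 14020 to 14970 CPM in WT at day 14. Of the 8 cluster members tested at both days, 5 (Mmp12, Mmp1a, Mmp10, Mmp27 and Mmp20) followed the same pattern and Mmp13, Mmp3 and Mmp8 did not.

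**Figure D4:**
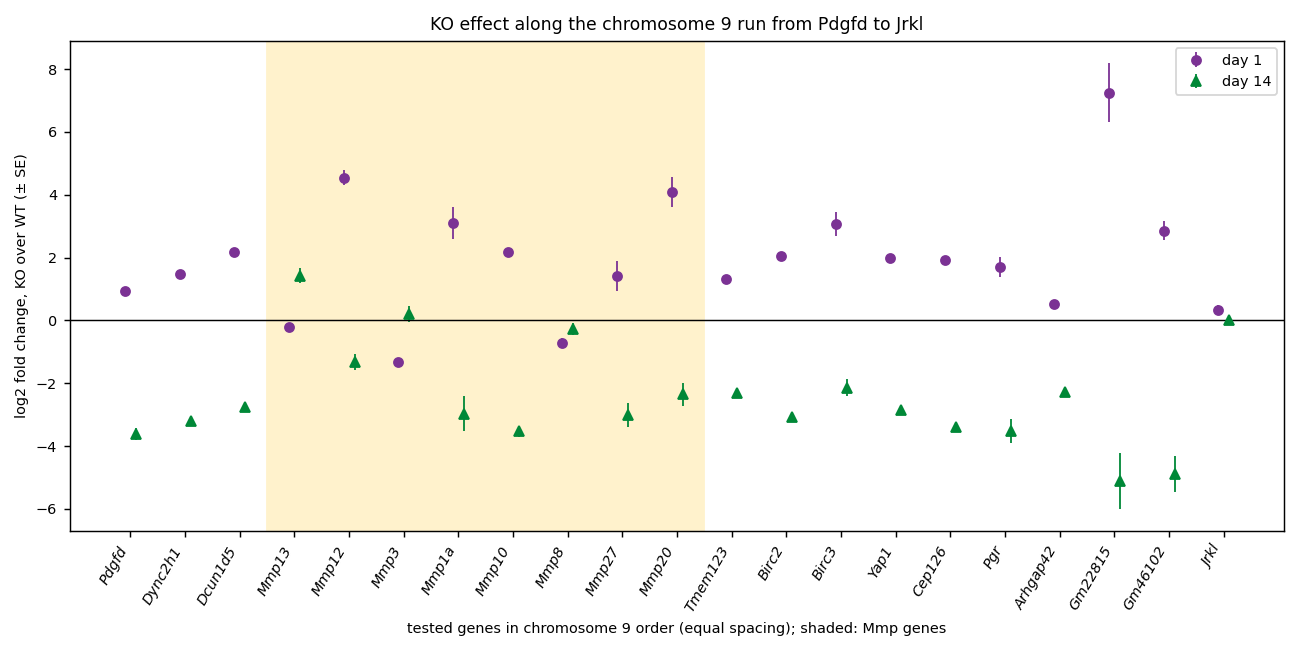
Log2 fold change of KO over WT (y axis, ± standard error) for each gene tested at both days from Pdgfd to Jrkl on chromosome 9 (x axis, in gene order at equal spacing), with day 1 and day 14 drawn in different symbols and Mmp genes shaded. The unshaded genes other than Jrkl lie above 0 at day 1 (median 1.96) and below 0 at day 14 (median -3.14), while Mmp13, Mmp3 and Mmp8 lie below 0 at day 1; Gm22815 had 0 counts in WT at day 1, so its fitted value there is no measured fold.

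To show cluster members beside their surroundings, their counts were divided by those of the 12 flanking genes, a ratio chosen after the values were seen and given as a description. The flanking sum itself differed between the genotypes at both days, so each ratio moves with it. Mmp1b and Mmp7, with the fewest counts, are not given. Per 1000 flanking counts, Mmp10 had 34.2 ± 0.838 in KO against 24.1 ± 1.52 in WT at day 1, and 18.4 ± 2.02 in KO against 32.0 ± 8.45 in WT at day 14 (mean ± SD, n = 3 each). Mmp12 had 1.23 ± 0.253 in KO against 0.165 ± 0.0414 in WT at day 1, and 1.85 ± 0.472 in KO against 0.704 ± 0.171 in WT at day 14. Mmp1a had 0.0838 ± 0.0261 in KO against 0.0298 ± 0.0141 in WT at day 1. At day 14 it had 0.0703 ± 0.03304 in KO against 0.0888 ± 0.0337 in WT. Mmp20 had 0.1101 ± 0.0239 in KO against 0.0196 ± 0.00546 in WT at day 1. At day 14 it had 0.194 ± 0.0699 in KO against 0.1496 ± 0.00851 in WT. Mmp27 had 0.119 ± 0.06097 in KO against 0.143 ± 0.07497 in WT at day 1. At day 14 it had 0.1003 ± 0.0188 in KO against 0.125 ± 0.0168 in WT. Mmp13 had 6.55 ± 0.636 in KO against 24.2 ± 0.537 in WT at day 1, and 111.3 ± 26.4 in KO against 6.25 ± 2.25 in WT at day 14. Mmp3 had 1.19 ± 0.0775 in KO against 9.41 ± 0.238 in WT at day 1, and 5.64 ± 1.49 in KO against 0.737 ± 0.231 in WT at day 14. Mmp8 had 0.412 ± 0.07199 in KO against 2.13 ± 0.03698 in WT at day 1. At day 14 it had 2.59 ± 0.299 in KO against 0.471 ± 0.0277 in WT. The flanking sum was higher in KO at day 1 and lower at day 14. A gene with equal CPM in both genotypes must therefore have a lower, then a higher ratio in KO. Mmp13, Mmp3 and Mmp8 had ratios in that order, though Mmp3 and Mmp8 did not pass by CPM at day 14. Mmp10 and Mmp1a kept the direction of their CPM at both days. Mmp12 and Mmp20 had higher means in KO at both days, and Mmp27 had lower means in KO at both. The KO and WT libraries of Mmp27 overlapped at both days, and those of Mmp1a and Mmp20 overlapped at day 14. These orders depend on the divisor and are no test of the members.

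The promoters of the cluster are shown because its members split into those that moved with their neighbours and those that did not. RefSeq sequences of build GRCm38.p6 are given on the plus strand, from 110 bases before to 10 bases after the start of transcription, with capitals marking the AP-1 letters TGANTCA, the element bound by Fos and Jun dimers.
Mmp10 (chr9:7502232-7502351): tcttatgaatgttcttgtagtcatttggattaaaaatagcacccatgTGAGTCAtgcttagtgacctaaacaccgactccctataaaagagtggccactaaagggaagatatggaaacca
Mmp12 (chr9:7347264-7347383): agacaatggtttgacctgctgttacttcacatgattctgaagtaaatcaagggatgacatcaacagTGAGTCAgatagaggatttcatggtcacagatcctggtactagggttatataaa
Mmp1a (chr9:7464031-7464150): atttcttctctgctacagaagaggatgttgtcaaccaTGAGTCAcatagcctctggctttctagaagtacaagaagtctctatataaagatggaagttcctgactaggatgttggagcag
Mmp20 (chr9:7628121-7628240): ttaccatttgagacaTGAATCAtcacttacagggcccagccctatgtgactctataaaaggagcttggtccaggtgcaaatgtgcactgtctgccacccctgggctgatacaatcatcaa
Mmp13 (chr9:7272404-7272523): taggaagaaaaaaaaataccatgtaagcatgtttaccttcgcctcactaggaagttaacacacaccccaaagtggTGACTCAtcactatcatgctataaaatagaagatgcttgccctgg
Mmp3 (chr9:7445712-7445831): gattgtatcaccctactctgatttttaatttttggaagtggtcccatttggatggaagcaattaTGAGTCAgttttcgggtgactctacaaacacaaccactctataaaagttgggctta
Mmp27 (chr9:7571286-7571405): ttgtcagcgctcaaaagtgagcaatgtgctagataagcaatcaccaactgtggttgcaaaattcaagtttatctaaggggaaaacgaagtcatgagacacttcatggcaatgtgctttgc
Mmp8 (chr9:7558319-7558438): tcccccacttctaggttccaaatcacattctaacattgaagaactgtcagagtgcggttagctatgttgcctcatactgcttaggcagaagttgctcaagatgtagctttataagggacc
The first 4 and Mmp27 belong to genes called higher and then lower in KO cells, and Mmp13, Mmp3 and Mmp8 to those that were not. The AP-1 letters occur 63 bases before the start in Mmp10, 44 in Mmp12, 73 in Mmp1a, 95 in Mmp20, 35 in Mmp13 and 46 in Mmp3. Mmp27 and Mmp8 hold none in the window searched, from 250 bases before to 50 after the start. Mmp12 has another start entry whose window holds none, and the start shown was picked because it holds the letters. Mmp7 likewise has an entry with the letters and another without. So both patterns of movement occur with and without these letters. In that window, read on both strands, 8 of 10 cluster genes hold the AP-1 letters at any of their starts. Counted the same way, 0 of the 22 other members with a promoter entry and 8.97% of 27025 genes with an entry hold them. Mmp2, Mmp9, Mmp16, Mmp17, Mmp19, Adamts4, Adamts5, Adamts6, Adamts7, Adamts8, Adamts10, Adamts15 and Adamts16 had no entry and were not searched. Many of these differed between KO and WT, so the count outside the cluster is incomplete. The letters AAAGGTCA of the NBRE, an element that NR4A receptors bind as monomers, occur in 1.51% of all promoters and in 0 of 35 promoters of members. A match of letters is a description of the sequence, not of binding.

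Of the ADAMTS proteases, 6 were higher and 3 lower in KO of 10 tested at day 14, and 4 were higher and 4 lower of 10 at day 1. Of all genes, 46.4% were called at day 14 and 60.8% at day 1. Those that cut aggrecan and versican, the large proteoglycans of cartilage and vessel wall, went separate ways. Adamts4 had 5.50, 6.73 and 3.61 CPM in KO and 13.6, 12.1 and 12.8 CPM in WT at day 1 (log2 fold change -1.28 ± 0.18 SE, adjusted p = 4.70e-05). In KO at day 14 Adamts4 had 44.8, 36.6 and 42.7 CPM, against 6.65, 11.6 and 9.85 CPM in WT (log2 fold change 2.14 ± 0.20 SE, adjusted p = 4.55e-05). Adamts5 ran the other way, with 31.9, 28.1 and 33.0 CPM in KO and 19.4, 23.1 and 18.1 CPM in WT at day 1 (log2 fold change 0.63 ± 0.11 SE, adjusted p = 0.000215). Adamts5 at day 14 had 9.13, 11.01 and 13.0 CPM in KO and 25.1, 58.0 and 50.2 CPM in WT (log2 fold change -2.02 ± 0.29 SE, adjusted p = 0.000592). Neither gene's KO and WT libraries overlapped at either day. Adamts1, a versican-cutting protease, had 208, 251 and 233 CPM in KO and 111, 146 and 156 CPM in WT at day 14 (log2 fold change 0.73 ± 0.13 SE, adjusted p = 0.00214). At day 1 it had 109, 110.5 and 120.3 CPM in KO and 94.7, 106 and 89.3 CPM in WT, a small gap (log2 fold change 0.24 ± 0.07 SE, adjusted p = 0.0101) whose call was lost without WT replicate 1 or 3 (adjusted p = 0.0534 and 0.0816), and in the fit of all 12 libraries.

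The pair that cuts cartilage oligomeric matrix protein (COMP), Adamts7 and Adamts12, was highest in KO at day 14. Adamts7, a gene linked to coronary artery disease in humans, had 150.1, 163 and 166 CPM in KO and 25.7, 51.8 and 53.8 CPM in WT at day 14 (log2 fold change 1.86 ± 0.24 SE, adjusted p = 0.000319). At day 1 it had 32.5, 26.6 and 35.0 CPM in KO and 141, 144 and 150.3 CPM in WT (log2 fold change -2.20 ± 0.09 SE, adjusted p = 2.85e-10), the widest gap of any ADAMTS at that day, with no overlap. The KO libraries of day 14 overlapped the WT libraries of day 1. Adamts7 shares 122 exon bases with Tbc1d2b on the opposite strand, which had means of 21.6 CPM in KO and 27.8 in WT at day 1 and 74.9 in KO and 21.4 in WT at day 14. Adamts12 had 11.9, 12.8 and 13.97 CPM in KO and 1.90, 1.88 and 3.22 CPM in WT at day 14 (log2 fold change 2.44 ± 0.24 SE, adjusted p = 6.36e-05), and overlapping values of 2.28, 1.11 and 2.83 CPM in KO and 2.89, 2.83 and 3.61 CPM in WT at day 1 (adjusted p = 0.117, passing at 0.0244 without KO replicate 3).

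Of the procollagen N-proteinases, which trim the ends of fibrillar procollagen, Adamts2 and Adamts14 moved in opposite directions at day 14. Adamts2 had 109, 134 and 122 CPM in KO and 14.3, 31.8 and 36.9 CPM in WT (log2 fold change 2.13 ± 0.29 SE, adjusted p = 0.000413), a log2 fold change of 1.79 without WT replicate 1. Its day 1 values of 22.6, 19.2 and 26.1 CPM in KO and 29.8, 26.2 and 26.6 CPM in WT did not pass (adjusted p = 0.0513), but passed in 5 alternatives, among them DESeq2 (0.0484) and without KO replicate 3 (0.00497). Adamts14 had 31.3, 34.5 and 32.3 CPM in KO and 52.3, 54.5 and 64.9 CPM in WT at day 14 (log2 fold change -0.82 ± 0.11 SE, adjusted p = 0.000434). At day 1 it had 49.9, 52.4 and 47.2 CPM in KO and 31.6, 34.5 and 34.6 CPM in WT, without overlap (log2 fold change 0.58 ± 0.07 SE, adjusted p = 2.02e-05). Adamts3, the remaining enzyme of the kind, had 1 count in all and stood in the day 14 table alone.

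Adamts6 and Adamts10, which act on fibrillin microfibrils, ran opposite to each other. Adamts6 had 77.0, 79.9 and 77.1 CPM in KO and 52.9, 60.2 and 60.1 CPM in WT at day 1 (log2 fold change 0.44 ± 0.07 SE, adjusted p = 8.90e-05). At day 14 it had 42.6, 39.5 and 38.2 CPM in KO and 105, 118 and 119.9 CPM in WT (log2 fold change -1.52 ± 0.10 SE, adjusted p = 6.71e-06). Adamts10 had 5.995, 5.28 and 7.07 CPM in KO and 14.5, 14.3 and 16.02 CPM in WT at day 1 (log2 fold change -1.27 ± 0.13 SE, adjusted p = 3.05e-06). The day 14 values were 11.1, 12.3 and 12.2 CPM in KO and 6.20, 4.54 and 5.05 CPM in WT (log2 fold change 1.15 ± 0.17 SE, adjusted p = 0.000725). Neither gene's libraries overlapped between the genotypes at either day. Adamts16 was low, with 10, 23 and 15 counts in KO and 39, 41 and 46 in WT at day 1 (log2 fold change -0.93 ± 0.36 SE, adjusted p = 0.0382), and its call was lost without several single libraries (adjusted p up to 0.131).

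The 3 TIMPs tested were lower in KO at day 1, where 30.2% of all genes were lower, and parted at day 14. Timp1, an inhibitor induced by cytokines and growth factors, had 758, 697 and 701 CPM in KO and 164, 213 and 181 CPM in WT at day 14 (log2 fold change 1.94 ± 0.11 SE, adjusted p = 3.93e-06). At day 1 it had 132, 124 and 133 CPM in KO and 202, 205 and 206 CPM in WT (log2 fold change -0.64 ± 0.05 SE, adjusted p = 3.32e-07). The day 14 KO values lay far above all other libraries. Timp3, the matrix-bound inhibitor that also blocks ADAMTS4 and ADAMTS5, was lower in KO at both days. It had 189, 209.6 and 204 CPM in KO and 281, 288 and 277 CPM in WT at day 1 (log2 fold change -0.48 ± 0.06 SE, adjusted p = 8.64e-06). In KO at day 14 Timp3 had 60.6, 49.1 and 42.7 CPM, against 209, 250.4 and 246 CPM in WT (log2 fold change -2.22 ± 0.14 SE, adjusted p = 6.80e-06). The gap was wider at day 14, with a change of -1.72 ± 0.15 on the log2 scale (adjusted p = 1.37e-07). Timp2, which takes part in activation of the Mmp2 precursor by Mmp14, had 396, 405 and 399.8 CPM in KO and 494, 495 and 509 CPM in WT at day 1 (log2 fold change -0.31 ± 0.05 SE, adjusted p = 0.000134). Timp2 at day 14 had 552, 631 and 638 CPM in KO and 403, 514 and 533 CPM in WT, all KO libraries higher, at an adjusted p of 0.0564 (log2 fold change 0.32 ± 0.12 SE). It passed in 5 alternatives, among them without WT replicate 1 (log2 fold change 0.18, adjusted p = 0.0378) and in the fit of all 12 libraries (0.33, adjusted p = 0.00817). Timp4 stayed below the filter, with 15 counts in KO and 6 in WT at day 1 and 20 in KO and 36 in WT at day 14.

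The remaining members were low everywhere. Of the 22 members below the levels described library by library, 6 were tested in at least one comparison (Mmp1a, Mmp1b, Mmp17, Mmp20, Mmp27 and Adamts16), and no group mean among the 22 exceeded 2.19 CPM. The 16 that were tested nowhere had group means of at most 0.602 CPM. Among the 23 better-measured members the highest group was KO at day 1 for 2, WT at day 1 for 6, KO at day 14 for 11 and WT at day 14 for 4. All genes were not counted in this way, and a member could enter the 23 through its level in a single group.

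Members also differed between the days within each genotype. From the fit of all 12 libraries, 12 of 29 members were higher and 12 lower at day 14 than at day 1 in KO, where 54.8% of all genes were called, 26.9% higher and 27.9% lower. In WT, 10 of 29 were higher and 8 lower, where 51.9% of all genes were called, 25.8% higher and 26.1% lower. With library size alone as the scaling, 62.7% of the calls in WT and 42.2% in KO were higher, against 49.7% in WT and 49.1% in KO with the scaling used here. In KO the widest rise on the log2 scale was that of Mmp9 (4.91 ± 0.33 SE) and the widest fall Mmp10 (-3.63 ± 0.15 SE). In WT the widest rise was Mmp20 (4.50 ± 0.43 SE) and the widest fall Mmp9 (-2.27 ± 0.52 SE). Both rest on very few counts at their low end. Mmp20 had 2, 2 and 3 counts in WT at day 1, and Mmp9 had 4, 0 and 7 in WT at day 14. These contrasts share libraries with those of genotype, and the change from table to table is part of them.

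Since KO cells of day 1 lay closest to WT cells of day 14, the pair was also set against each other. Of 29 members 3 were higher and 4 lower in KO at day 1 than in WT at day 14, and 9.78% of all genes were called, 3.89% higher and 5.89% lower. The 7, with their log2 fold changes, were Mmp9 (1.90 ± 0.56 SE), Mmp12 (0.81 ± 0.22), Mmp3 (0.70 ± 0.19), Timp1 (-0.52 ± 0.09), Adamts6 (-0.55 ± 0.08), Mmp14 (-0.63 ± 0.12) and Adamts4 (-0.82 ± 0.22). The median absolute log2 fold change of the 29 members was 0.30, against 0.22 for all genes. The count ranged from 3 to 18 members without single libraries, the 18 without WT replicate 1, and was 1 in a fit of these 2 groups alone.

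Other genes of matrix breakdown were read from 5 lists, whose medians are given beside that of all genes, 0.01 at day 1 and -0.00 at day 14 on the log2 scale. The counts of each list stand beside the shares of all genes, 30.6% higher and 30.2% lower at day 1, and 22.7% higher and 23.7% lower at day 14. Of 8 ADAM proteases tested, relatives that shed proteins from the cell surface, 0 were higher and 7 lower in KO at day 1, and 6 were higher and 0 lower at day 14 (median log2 fold change -0.615 and 0.64). The KO effect changed upward for 8 of 8, and for 29.5% of all genes. Adam19 had a log2 fold change of -2.24 ± 0.10 SE at day 1 and 1.88 ± 0.17 SE at day 14. Adam10, a main sheddase, had a log2 fold change of -1.13 ± 0.06 SE at day 1 and 0.67 ± 0.08 SE at day 14.

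Of the plasminogen system, which activates MMP precursors, 3 were higher and 3 lower of 7 at day 1, and 1 higher and 3 lower of 7 at day 14 (medians 0.04 and -0.47). Its inhibitor Serpinb2 had a log2 fold change of -1.39 ± 0.21 SE at day 1 and 4.60 ± 0.17 SE at day 14. The urokinase receptor Plaur ran the other way, with a log2 fold change of 0.57 ± 0.07 SE at day 1 and -1.01 ± 0.15 SE at day 14. Of the activators and inhibitors of metalloproteinases, 2 were higher and 8 lower of 11 at day 1, and 5 higher and 3 lower of 10 at day 14 (medians -0.29 and 0.47). Reck, a membrane-anchored MMP inhibitor, had a log2 fold change of -0.37 ± 0.14 SE at day 1 and 0.57 ± 0.20 SE at day 14.

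Of other matrix proteases, 4 were higher and 7 lower of 12 at day 1, and 3 higher and 2 lower of 12 at day 14 (medians -0.42 and 0.07). Bmp1, a procollagen C-proteinase, had a log2 fold change of -0.70 ± 0.06 SE at day 1 and 2.15 ± 0.13 SE at day 14. Of the matrix proteins that these enzymes cut, 2 were higher and 12 lower of 16 at day 1, and 7 higher and 4 lower of 15 at day 14 (medians -0.92 and 0.16). Col3a1, a fibrillar collagen chain, had a log2 fold change of -2.90 ± 0.06 SE at day 1 and 2.35 ± 0.20 SE at day 14. Vcan, or versican, had -0.66 ± 0.06 SE at day 1 and 1.23 ± 0.10 SE at day 14 on the same scale. The summed level of 8 adventitial fibroblast markers was 231 to 336 CPM in KO and 532 to 539 CPM in WT at day 1, and 678 to 759.7 CPM in KO and 492 to 676 CPM in WT at day 14. Ly6a was the largest term of the sum in every group. At day 1 Dpep1 alone had a higher mean in KO. At day 14 the means of Ly6a, Pdgfra, Cd248, Pi16 and Dpt were higher in KO. Those of Cd34 (7.53 CPM in KO and 39.3 CPM in WT), Dpep1 and Clec3b were lower. The part of these markers in these results was not tested.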

How the data were processed

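RNA was measured in 12 libraries. The authors deposited unnormalized counts for each gene name, with a separate table per day. Column names carry CTR or KO with a number but no day: CTR was taken to mean WT, and each table supplied its day. The submitters' processing notes name build mm9. For the aligner, counter, annotation and strand setting, the sources used here give nothing. Per the labels' protocols, RNA was taken with TRIzol and libraries were made with the NEBNext Ultra kit. The members and all lists were chosen with earlier results of these data known.

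Repeated lines (same name, same counts) were dropped, 43 at day 1 and 53 at day 14. The quasi-likelihood test of edgeR 4.0.16 (R 4.3.3) was run on counts that passed filterByExpr, scaled by TMM. P-values were adjusted by Benjamini-Hochberg over every gene tested, and calls were made below 0.05. Each day's KO and WT were fitted on that day's 6 libraries. The other contrasts used 1 fit of all 12 libraries over shared names. The standard error (SE) was the log2 fold change divided by the root of F. CPM are counts per 1000000 of the scaled library total over all 12 libraries. Values in every library are given for members with a group mean of at least 10 CPM, or called between KO and WT with at least 3 CPM. The others are given as counts or ranges. Alternatives were RLE scaling, library size alone, DESeq2 1.42.0, other filters, a replicate block, other fits and leaving out each library. Exon lengths and overlaps came from GENCODE M21 and promoters from RefSeq, both of build GRCm38, which is not the build of the counts. The scripts were tested on simulated counts.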

Additional observations from a re-analysis of the deposited data

Results flagged for a closer look

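The KO effect differed between day 1 and day 14 for 23 members by the interaction term of the fit of all 12 libraries (edgeR, adjusted p below 0.05), where 60.1% of all genes did so. The values are log2 differences, the KO effect at day 14 minus that at day 1. Upward changes were 7.18 for Mmp9, 4.08 for Adamts7, 3.44 for Adamts4, 3.03 for Adamts12, 2.60 for Timp1, 2.48 for Mmp19, 2.45 for Adamts10, 2.42 for Adamts2, 1.67 for Mmp13, 1.55 for Mmp3, 1.04 for Mmp14, 0.65 for Timp2 and 0.51 for Adamts1. Downward changes were -6.41 for Mmp20, -6.04 for Mmp1a, -5.86 for Mmp12, -5.68 for Mmp10, -5.39 for Mmp1b, -4.41 for Mmp27, -2.62 for Adamts5, -1.94 for Adamts6, -1.72 for Timp3 and -1.38 for Adamts14. The 6 largest downward changes are all members of the chromosome 9 cluster, and 12 of the 13 flanking genes tested there moved downward as well. Adamts1 lost its call with library size alone as the scaling (adjusted p = 0.115).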

How the results depend on the processing

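Of 134 results of members, 103 had the same call and direction under every alternative run, 28 lost or gained a call and 3 changed direction under at least one. The comparison of KO at day 1 with WT at day 14 was the one whose counts moved by over 1.5 times: 205 genes and 1 member were called in a fit of these 2 groups alone, and leaving out single libraries gave 576 to 5538 genes and 3 to 18 members, the highest counts without WT replicate 1. DESeq2 called 2242 genes there, against 1562 with edgeR. Without single libraries, the members called ranged from 22 to 26 at day 1, from 20 to 24 at day 14 and from 23 to 24 for the change. In the fit of all 12 libraries 21 members were called at day 1, where Mmp2, Mmp13, Mmp28, Adamts1 and Adamts16 lost their calls (adjusted p from 0.0648 to 0.363). The change of Mmp11 was -0.13 with library size alone and ranged from -0.10 to 0.15 without single libraries, the KO effect on Mmp28 at day 14 ranged from -0.18 to 0.26 and the change of Adamts16 from -0.85 to 0.41. These 3 passed no test in the fits used. The cause of these moves was not tested. Same-numbered KO and WT libraries did not deviate together (correlations -0.0221, -0.00838 and -0.0109 at day 1, and 0.00904, -0.0141 and 0.0175 at day 14). The labels do not say whether the numbers pair the samples, and these correlations cannot exclude it. With the replicate block, 9090 genes and 26 members were called at day 1, 6716 and 23 at day 14, and 9524 and 24 for the change. Members with few counts, such as Mmp1a, Mmp1b, Mmp20 and Mmp27, rest on at most 47 counts in a library.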
